A study of Mus musculus with 6 samples.

Results

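Snhg1 and Snord22 are a noncoding gene and the small nucleolar RNA (snoRNA) that lies in one of its introns. They were taken by symbol, and both had a row: 2 of the 23420 genes in the count tables. Both were among the 1852 genes that passed the filter on low counts. The counts come from small RNA libraries of NIH 3T3, a fibroblast line that was derived from mouse embryos and grows without limit. The cells for every library had been transfected with pEGFP-NXF3, a plasmid for NXF3 (nuclear export factor 3) fused to the fluorescent protein GFP. The 3 input libraries were made without an antibody, and the 3 pulldown libraries from RNA recovered with anti-GFP antibody. Per the labels, input and pulldown RNA came from 3 separate experiments, and nothing says that libraries of equal number share one. No library from cells without the bait, or with an unrelated antibody, was used here. Every comparison therefore sets shares of the pulldown reads against shares of the input reads, in cultures that were all transfected with the bait plasmid. In such bulk libraries fewer cells with an RNA and less of it per cell cannot be told apart.

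Box C/D snoRNAs are short RNAs that stay with the proteins fibrillarin, NOP56, NOP58 and SNU13, and most of them guide the ribose methylation of ribosomal RNA. Snord22, or U22, is an exception: in Xenopus oocytes it is needed for the cleavages that release 18S rRNA from its precursor. Most vertebrate snoRNAs are cut out of introns after splicing. Snhg1, the U22 host gene, is unusual in that its spliced exons do not encode a protein. The spliced RNA is short-lived in the cytoplasm, where nonsense-mediated decay removes it, while the intronic snoRNAs are stable. One transcript thus gives both RNAs, and their relative amounts depend on how each is made and lost.

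In the GENCODE M21 annotation of build GRCm38, Snhg1 spans chromosome 19, 8723475 to 8726443, on the plus strand. Its spliced form has 10 exons with 605 nucleotides in all. Of its 9 introns, 8 hold 1 snoRNA gene each. Snord22 lies at chromosome 19, 8725866 to 8725991, in intron 8, and ends 75 nucleotides before exon 9. The count tables name the build mm9 and give no coordinates, so these positions describe the genes and not the intervals that were counted. The other 7 snoRNA genes of Snhg1 have only Gm names in this annotation, with no row under those names or as Snord25 to Snord31, and were not analysed here.

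**Figure D1:**
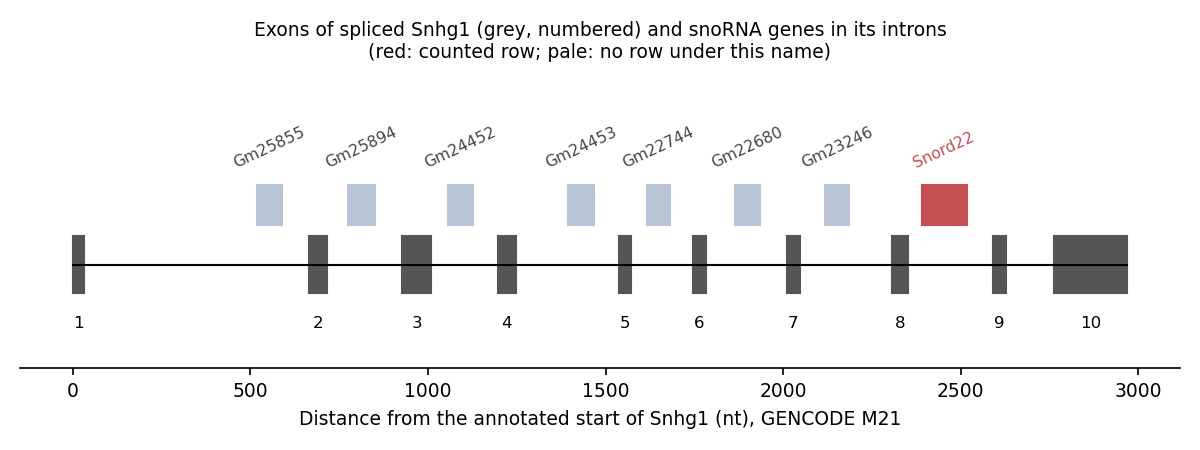
Exons of spliced Snhg1 (grey boxes, numbered) and the snoRNA genes in its introns, drawn to scale along the distance from the annotated start of Snhg1 in nucleotides. Snord22 (red), at 126 nucleotides the longest of the 8, sits in intron 8 and is the one snoRNA here with a row in the count tables.

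The sequence of Snord22 is shown with that of the snoRNA in the intron just before it and that in the first intron. Snord22 differs from both in length and in the letters of box C. The sequences are GENCODE M21 transcripts, 5′ to 3′. Capitals mark the box C match (TGANGA within the first 15 bases) and the box D match (CTGA within the last 15 bases), searched on the transcript strand alone.
Snord22: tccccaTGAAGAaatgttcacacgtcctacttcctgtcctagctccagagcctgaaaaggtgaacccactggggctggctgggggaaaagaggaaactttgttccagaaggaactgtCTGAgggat
Gm23246: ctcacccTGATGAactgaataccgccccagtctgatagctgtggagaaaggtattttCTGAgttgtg
Gm25855: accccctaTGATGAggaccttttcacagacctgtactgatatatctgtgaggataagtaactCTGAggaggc

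Snord22 has TGAAGA from base 7 and CTGA from base 118, while Gm23246 and Gm25855 carry TGATGA. In 2 of the other snoRNA genes of Snhg1, Gm25894 and Gm24453, no box C match was found in this window, which says nothing of a box C with other letters or further in. Both boxes were found in 67.3% of the 98 transcripts named Snord and in 20.3% of all 1507 snoRNA transcripts, box H/ACA members included. No stretch of 30 bases of Snord22, or of spliced Snhg1, occurred on either strand in a transcript of another gene in this annotation. The search took exact matches only. Sharing of reads with copies that hold mismatches, or that lie outside annotated transcripts, was not tested. Of the 18 annotated Snhg1 transcripts, 3 retain the whole of Snord22 in an exon, and 5, these 3 included, have an exon over at least part of it. Neither the annotation nor the strand setting behind the counts is given in the sources used here. Reads that fell on 2 genes may have gone to the ambiguous line, depending on the counting mode, which is not given. That line held 0.197% to 0.427% of all reads in a library, and how many of these lay in Snord22 is not known.

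Snhg1, the host, was a rare species in every library, and its mean level was higher in the pulldown, by an amount that depended on the scaling in single libraries. Inputs 1, 2 and 3 held 15, 13 and 16 of its reads, and pulldowns 1, 2 and 3 held 20, 58 and 19. The libraries held between 769570 and 6946284 gene counts, the lowest in pulldown 1 and the highest in pulldown 2. In CPM (read counts scaled to a common library size) after TMM scaling, which adjusts for libraries taken up by a few abundant genes, the input levels were 5.20, 6.50 and 3.56 and the pulldown levels 13.3, 13.7 and 6.28. Pulldowns 1 and 2 were above every input, whereas pulldown 3 lay just below input 2, so the groups overlapped.

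Snhg1 averaged 5.09 ± 1.47 CPM over the inputs and 11.1 ± 4.19 CPM over the pulldowns (SD, n = 3 each). This is a log2 fold of 1.18 (SE 0.36, 95% interval 0.40 to 1.96), or a 2.26-fold higher level, and it did not pass over all tested genes (adjusted p = 0.555, edgeR quasi-likelihood test with Benjamini-Hochberg adjustment; unadjusted p = 0.00608). An unadjusted p under 0.05 with the pulldown higher was found for 2.27% of all tested genes. The pulldown level was the higher one in 3 of 3 same-numbered pairs. Of all tested genes, 1.89% had a larger log2 fold in either direction. Without pulldown 1, which is the shallowest library and had the most extreme TMM factor (1.95), the log2 fold was 1.09, and without pulldown 2, which had the most reads of it, it was 0.90. Without TMM scaling the level in pulldown 1 was 26.0 CPM (exact 95% interval 15.9 to 40.1), against 8.35 (6.34 to 10.8) in pulldown 2, 5.80 (3.49 to 9.05) in pulldown 3 and 6.90 (3.67 to 11.8) in input 2, the highest input. Pulldown 2 was thus well above input 2 after TMM scaling but within its counting interval without it, and counts this low leave wide limits on each library.

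Snord22 differed in the other direction, and each of its 3 pulldown levels lay below each of its 3 input levels. Inputs 1, 2 and 3 held 2110, 699 and 2329 of its reads, and pulldowns 1, 2 and 3 held 255, 1403 and 827. These are levels of 731, 349 and 519 CPM for the inputs and of 170.0, 332 and 273 CPM for the pulldowns. After TMM scaling input 2 and pulldown 2 were close to each other. Without it the levels were 551, 371 and 592 CPM in inputs 1, 2 and 3, and 331, 202 and 252 CPM in pulldowns 1, 2 and 3. The groups did not overlap on that scale either, and pulldown 1 was then the nearest to input 2. Over all tested genes, after TMM scaling, 6.16% had group ranges that did not overlap with the pulldown lower, and 4.27% with the pulldown higher.

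**Figure D2:**
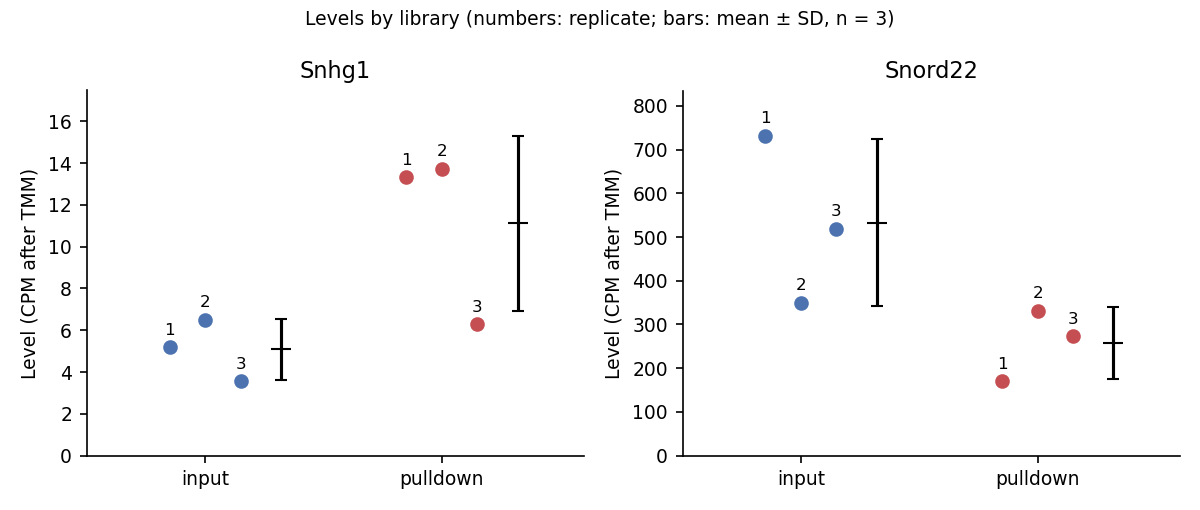
Level of Snhg1 (left) and Snord22 (right) in CPM after TMM scaling, 1 point per library with its replicate number, and mean ± SD of 3 libraries as a bar. Snhg1 reaches 13.3 and 13.7 CPM in pulldowns 1 and 2 against at most 6.50 in input, and Snord22 stays at or below 332 CPM in the pulldown against at least 349 in input.

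Snord22 averaged 533 ± 191 CPM over the inputs and 258 ± 82.0 CPM over the pulldowns (SD, n = 3 each). The log2 fold of -1.04 (SE 0.51, 95% interval -2.14 to 0.05), or a 2.06-fold lower level, did not pass (adjusted p = 0.825, edgeR; unadjusted p = 0.0607, where 3.35% of all tested genes were lower at an unadjusted p under 0.05). Of the 2 members, 0 were called by edgeR or DESeq2. Among all tested genes edgeR called 0% higher and 0.054% lower, and DESeq2 called 1 gene higher and 1 lower. Without pulldown 1 the log2 fold of Snord22 was -0.81, and without input 1, where it was highest, it was -0.73.

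Set against its own class, a scaling chosen after seeing the data, Snord22 showed the same direction. Box C/D rows held 72.4% to 81.7% of input and 69.6% to 80.5% of pulldown counts. This share is therefore close to one of all counts, and scaling by total counts gave a log2 fold of -0.95. Snord22 made up 0.0702%, 0.0512% and 0.0724% of all box C/D counts in inputs 1, 2 and 3, and 0.0476%, 0.0251% and 0.0326% in pulldowns 1, 2 and 3. The shares of the groups did not overlap (0.0646% ± 0.0116 against 0.0351% ± 0.0115, log2 difference -0.91, p = 0.1 in an exact two-sided permutation test, which is the smallest p that 3 against 3 allow). Its log2 fold was the second lowest of 62 tested box C/D rows, next to Snord68 at -1.08, and the rows ran up to 2.60 for Snord33, which comes from an intron of the ribosomal protein gene Rpl13a. Of these rows, 1.61% had group ranges that did not overlap with the pulldown lower, which is Snord22 alone. The same share, 1.61%, did not overlap with the pulldown higher, which is Snord33 alone. Snord33 was called higher by DESeq2 (adjusted p = 0.00397) and was not called by edgeR (adjusted p = 0.0581). U22 was not an abundant member of the class: in reads per base of its length it ranked 40 to 49 among the 62 rows, depending on the library.

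**Figure D3:**
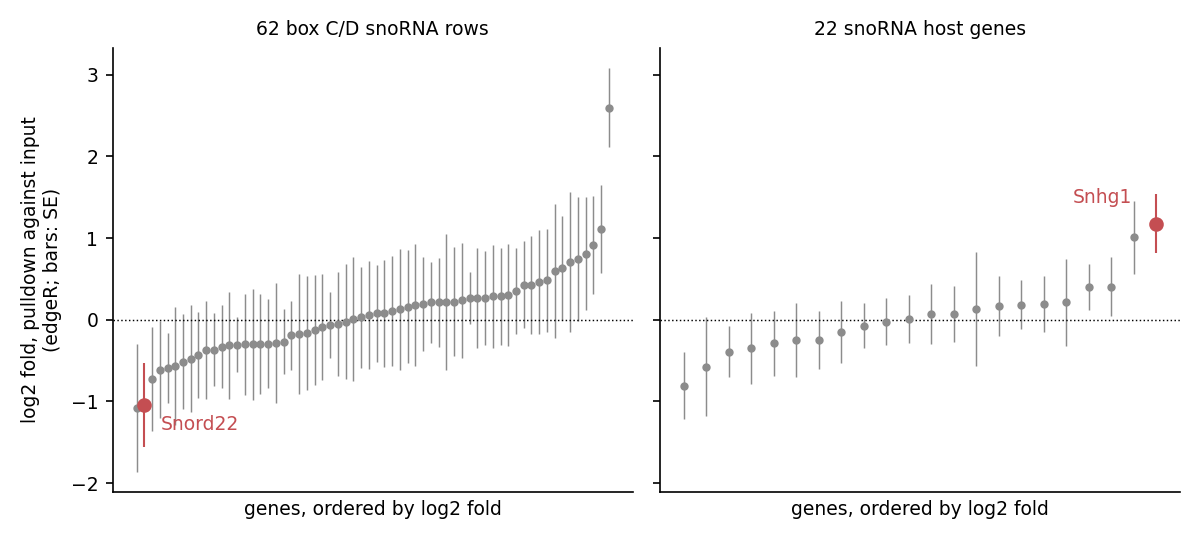
Log2 fold of pulldown against input with its SE (edgeR) for 62 box C/D snoRNA rows (left) and 22 snoRNA host genes (right), each ordered by fold. Snord22 is second from the low end of the snoRNAs, and Snhg1 has the highest fold of the tested hosts.

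The ratio of the snoRNA to its host, taken within a library, does not depend on how libraries are scaled. There were 141, 53.8 and 146 Snord22 reads per Snhg1 read in inputs 1, 2 and 3, against 12.8, 24.2 and 43.5 in pulldowns 1, 2 and 3. All 3 pulldown ratios lay below all 3 input ratios. The exact 95% counting intervals of the nearest libraries overlapped, 31.2 to 101 in input 2 and 27.7 to 72.7 in pulldown 3, while that of pulldown 1 (8.08 to 21.2) lay below the interval of every input. Such intervals cover counting error only, since reads amplified by PCR without molecular tags are not independent molecules. Per base, with 126 nucleotides of Snord22 and 605 of spliced Snhg1, the ratio was 258 to 699 in input and 61.2 to 209 in the pulldown. Reads of a host this long come from fragments in a library of small RNA, so the ratio compares reads and does not count molecules.

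On the log2 scale the ratio averaged 6.69 ± 0.82 over the inputs and 4.57 ± 0.89 over the pulldowns (SD, n = 3 each). The difference of -2.12, a 4.34-fold lower ratio in the pulldown, reached p = 0.1 in the exact permutation test, again the smallest possible. After TMM scaling both RNAs contributed in near-equal measure on the log2 CPM scale, 1.09 from the higher Snhg1 and -1.03 from the lower Snord22. This split depends on the scaling: with total-count scaling the edgeR log2 folds were 1.32 for Snhg1 and -0.95 for Snord22. The same-numbered pairs differed by -3.46, -1.15 and -1.74. Without pulldown 1 the difference was -1.67.

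**Figure D4:**
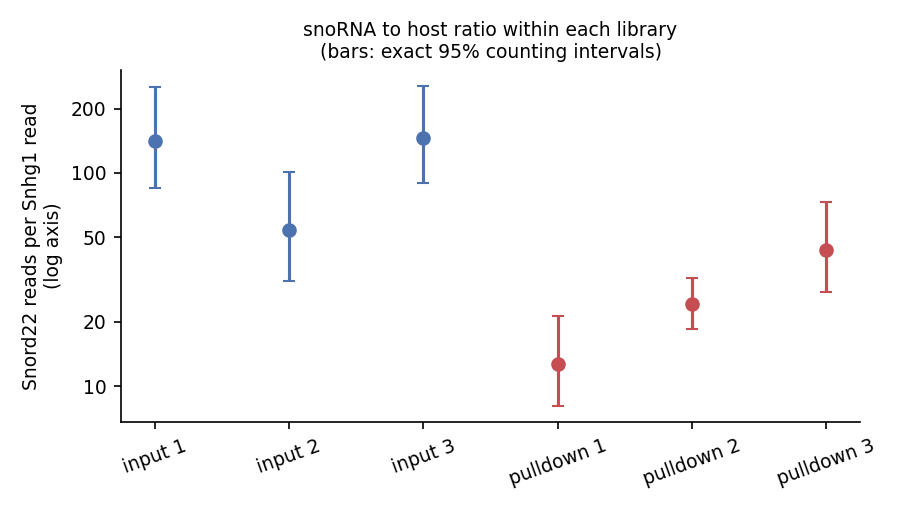
Snord22 reads per Snhg1 read in each library on a log axis, with exact 95% counting intervals. Inputs lie between 53.8 and 146 and pulldowns between 12.8 and 43.5.

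Other snoRNAs and their hosts were set beside this pair. Of 111 listed pairs, 63 lacked a row for one or both genes, 28 had a mean under 10 counts for one of them, and 2 did not lie inside the named host in RefSeq on GRCm38. The 18 pairs left belong to 10 hosts. The Snhg1 pair had the lowest difference of log2 ratios among them, and the 17 other pairs ran from -1.80 to 1.23 with a median of 0.15. Of these others, 7 had a negative and 10 a positive difference.

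Group ranges did not overlap, with the pulldown lower, in 4 of the 18 pairs (22.2%). Besides Snord22 these were Snord35a, Snord32a and Snord34, with differences of -1.80, -1.60 and -1.55 (each at p = 0.1 in the exact permutation test, and 0.45 after Benjamini-Hochberg adjustment over the 18 pairs, as for Snord22). All 3 share Rpl13a as host, whose 2 to 31 reads per library enter each of those ratios, so they are not separate observations. The fourth snoRNA of Rpl13a, Snord33, had a difference of 1.23, the highest of all pairs. Gas5, the other noncoding host among the pairs described, gave a difference of -0.29 for Snord47, with overlapping groups (0.0859 to 0.144 Snord47 reads per Gas5 read in input, 0.0488 to 0.124 in the pulldown). The Gas5 row held 172768 to 1123036 reads per library, against 13 to 58 for Snhg1. The other listed snoRNAs of Gas5 had no row, and whether the Gas5 row counts its spliced RNA alone is not known. Whether the Snhg1 pair differs from any of these pairs was not tested.

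**Figure D5:**
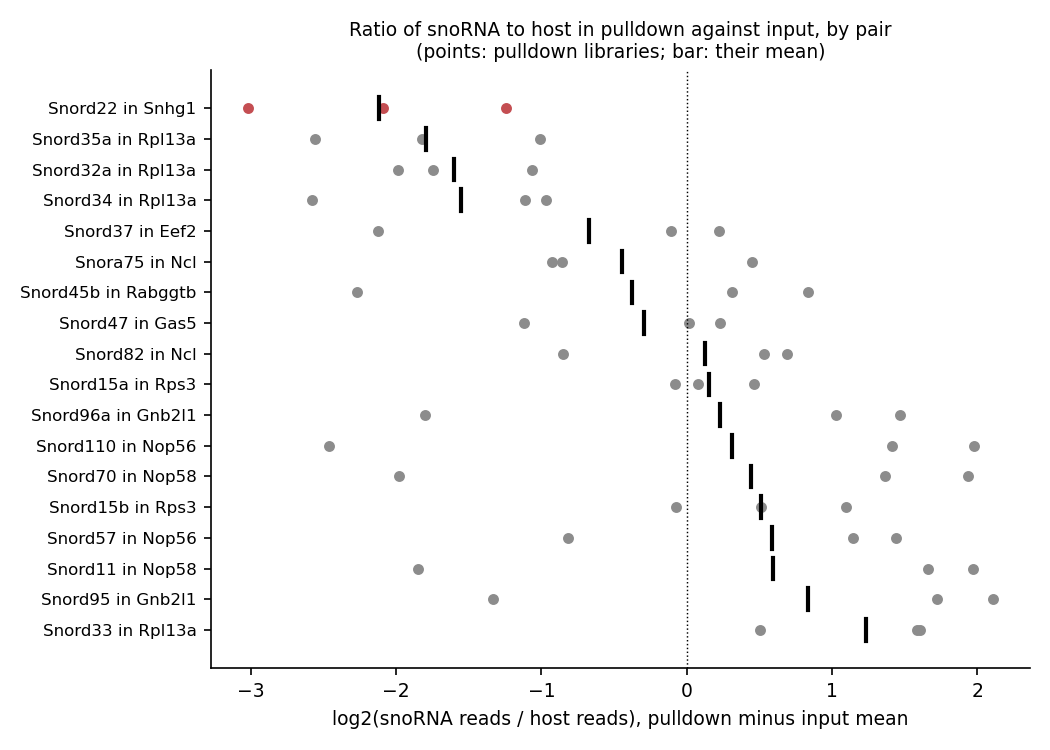
Log2 ratio of snoRNA to host reads in each pulldown library minus the input mean, for 18 pairs; points are libraries and the bar is their mean. For Snord22 in Snhg1 (red) all 3 points lie below 0, with a mean of -2.12, and in most other pairs the points fall on both sides of 0.

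Host genes as a group gave no call. Of 52 listed hosts, 22 were tested and 0 were called by edgeR, beside 0% of all tested genes called higher and 0.054% called lower. At an unadjusted p under 0.05 by edgeR, 2 hosts were higher and 0 lower, beside 2.27% and 3.35% of all tested genes. Of the 22 hosts, 12 had positive and 10 negative log2 folds, and their median was 0.04 against 0.00 for all tested genes. Snhg1 had the smallest p among them, followed on the higher side by Rpl13a (log2 fold 1.01, SE 0.44, adjusted p = 0.825, edgeR). On the lower side the smallest p belonged to Gnb2l1, which encodes the ribosome-bound protein RACK1 (log2 fold -0.81, SE 0.41, adjusted p = 0.825, edgeR), and to Cnot1, the scaffold of the CCR4-NOT deadenylase complex (-0.39, SE 0.31). Gas5 aside, the other tested noncoding hosts, Snhg5 and Snhg7, had few reads. Snhg5 had 11, 6 and 12 input reads against 4, 7 and 10 pulldown reads (log2 fold -0.35, SE 0.43), and Snhg7 had 4, 6 and 13 against 5, 7 and 2 (-0.57, SE 0.61). The difference of these folds from that of Snhg1 was not tested.

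Factors around U22 and its host gave no call either, and at an unadjusted p under 0.05 by edgeR only Nolc1 (higher) and Nxf1 (lower) stood among those described next. DESeq2 called neither member and no gene of these lists or of the hosts. Of 12 listed snoRNAs that act in the cleavage of pre-rRNA, 5 had a row and Snord22 was the 1 tested. Snord118, the U8 RNA of large-subunit maturation, had 1 read in all, and the 3 rows for U14 had none. Of 12 box C/D core and assembly protein genes 3 were tested, with 1 positive and 2 negative log2 folds and a median of -0.15. Nolc1, a nucleolar chaperone of snoRNPs, had 0.92 (SE 0.39), and the core proteins Nop56 and Nop58 had -0.25 (SE 0.46) and -0.15 (SE 0.38). Of 37 genes for assembly of the small subunit 7 were tested, 3 positive and 4 negative, with a median of -0.01. The smallest p were those of Utp20 (0.45, SE 0.34) and Ncl, or nucleolin (0.07, SE 0.37), on the higher side and of Wdr36 (-0.34, SE 0.51) and Bms1 (-0.24, SE 0.40) on the lower.

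Of 14 nonsense-mediated decay genes 2 were tested, the kinase gene Smg1 at a log2 fold of 0.26 (SE 0.26) and the helicase gene Upf1 at -0.26 (SE 0.53). Of 14 export factor genes 5 were tested, 1 positive and 4 negative, with a median of -0.36. The bait gene, Nxf3, had 2028 to 2343 reads in input and 1601 to 6559 in the pulldown (log2 fold 0.53, SE 0.55), Nxf1, the main mRNA export receptor, -0.65 (SE 0.26, adjusted p = 0.825, edgeR), and Thoc2, of the THO complex, -0.81 (SE 0.42). Rn45s, the rRNA precursor in which U22 acts, averaged 26716 ± 760 CPM over the inputs and 15052 ± 3320 CPM over the pulldowns (SD, n = 3 each) after the removal of rRNA reads. The log2 fold, -0.83 with an SE of 0.59, did not pass (adjusted p = 0.947, edgeR). After TMM scaling the group ranges of Rn45s, Nxf1 and Thoc2 did not overlap, with the pulldown lower. Those of Smg1 did not overlap either, with the pulldown higher. Over all tested genes the shares were 6.16% lower and 4.27% higher. As a share of all gene counts, without TMM scaling, the ranges of Rn45s overlapped, with 2.05% to 2.95% in input and 1.06% to 2.19% in the pulldown.

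The identity of the cells was checked by their markers. All 12 fibroblast markers had reads, at 0.0276% to 0.0398% of input and 0.0173% to 0.0751% of pulldown counts in sum; 11 were tested and 0 called, with a median log2 fold of -0.16. In order of p these were led by Sparc (-0.54, SE 0.31) and Pdgfrb (-0.63, SE 0.41) on the lower side and Thy1 (0.51, SE 0.39) and Col5a2 (0.40, SE 0.42) on the higher. The 5 epithelial markers were at 0 in every library (a count of 0 allows up to 0.00039% of the shallowest library), 4 of 5 leukocyte markers likewise, and the adipocyte markers summed to at most 0.00033% of a library.

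The genes whose log2 CPM followed each member most closely over the 6 libraries are given as a description, since likeness over 6 points that share depth and scaling carries no test. For Snhg1 these were Eif5b (Pearson r = 0.98), Ahnak (0.98), Ywhag (0.94), Bzw1 (0.94) and Fat1 (0.93), and among hosts Eef2 (0.75), Rpl4 (0.71) and Rabggtb (0.65). For Snord22 they included Steap2 (0.99), Tmed7 (0.98), Psme4 (0.96) and Mir15a (0.95). Among box C/D rows Snord22 was most like Snord32a (0.91), Snord35a (0.87), Snord15a (0.87), Snord88c (0.86) and Snord68 (0.84). Snhg1 and Snord22 themselves had r = -0.71 over the 6 libraries.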

How the data were processed

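The authors deposited 1 table of raw read counts per library. Per the labels' protocols, a small RNA kit with 14 PCR cycles was used and gel slices of 30 to 375 nucleotides were taken. The submitters' processing notes name Bowtie, Partek and build mm9, and the names of the deposited files show removal of rRNA reads and HTSeq-count. The sources used here do not give versions, annotation or counting mode. The 5 summary lines, which held 64.4% to 77.8% of reads, stayed out of library sizes and tests.

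Pulldown was tested against input in edgeR 4.0.16 (R 4.3.3) over all 6 libraries, with filterByExpr (minimum count 10), TMM, the quasi-likelihood F test and Benjamini-Hochberg adjustment over 1852 genes at 0.05; the procedure was tested on simulated data. SEs come from the F statistic. Ratios were compared with exact two-sided permutation tests (SciPy 1.17.1), which cannot go below 0.1 with 3 against 3. DESeq2 1.42.0 was an alternative. Members and lists were chosen with earlier results of these data known. Named genes were the members, the pairs described, the 2 smallest p per direction in each list, and the closest by Pearson correlation of log2 CPM (prior count 2); 1 gene that this rule names is not reported here. Labels name 3 experiments without saying which libraries share one, so neither the main test nor the permutation tests have a block; if equal numbers mark an experiment, the block values in the closing section apply.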

Additional observations from a re-analysis of the deposited data

How the results depend on the processing

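No alternative changed the direction of the Snhg1 fold, the Snord22 fold or their ratio, or brought either member past the threshold. Leaving out single libraries gave log2 folds of 0.90 to 1.48 for Snhg1 and -1.28 to -0.73 for Snord22, and log2 ratio differences of -2.59 to -1.67; adjusted p over the alternatives ran from 0.203 to 1.00 (Snhg1) and 0.811 to 1.00 (Snord22). With a mean of at least 50 counts Snhg1 was not tested. Scaling to the other long RNA rows (log2 difference 1.11, exact permutation p = 0.2) and to box C/D rows was chosen after seeing the data. On the linear scale the mean ratio fell by 86.5 reads per read. The replicate block gave 1.08 (Snhg1, adjusted p = 0.355, edgeR) and -1.03 (Snord22, adjusted p = 0.832, edgeR), and for the ratio -2.12 (exact sign-flip p = 0.25, the smallest possible). Same-numbered libraries deviated together at r = 0.03, 0.07 and 0.14, so the numbers were not taken to pair them; each library correlated best with its own number, a hint from the data. Genes called higher (0) became 1 with DESeq2, 1 with a mean of at least 50 counts, 1 with the replicate block and 7 without a filter, and 0 to 6 when single libraries were left out. Genes called lower (1) became 0 with total-count scaling, 0 with a mean of at least 50 counts, 3 with the replicate block and 9 without a filter, and 0 to 5 when single libraries were left out. The 13 to 58 reads of Snhg1 limit what its levels can show.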
